A study of Homo sapiens with 12 samples.

Results

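SLERT is a long noncoding RNA of 694 nucleotides, and its mutation rates were measured in NAI-treated PA1 cells and in a denatured control. All 694 nucleotides were taken, of 815 in the series, whose other 121 belong to 5S ribosomal RNA. A nucleotide was kept where the effective depth, the number of reads that could show a mutation there, was at least 1000 in both libraries of both conditions. This kept 693 nucleotides, the shallowest at 46388 reads in 1 library, and left out nucleotide 694, whose effective depth was 0.

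PA1 is an established human ovarian teratocarcinoma line, and the labels name no genetic change in the cells. Living cells were held at 37 °C for 10 minutes with 200 mM NAI, or with its solvent DMSO. The denatured control (DC) is RNA that was unfolded in formamide at 95 °C, and the sources used here do not say if NAI was added to it. Each condition had 2 libraries, reverse transcribed with 6 mM manganese and primers for the RNA, followed by nested PCR. The treatment text of the samples names another condition than their titles, and the conditions used here are the column roles of the deposited tables. No source says that the 2 libraries of a condition came from different cultures, so the p-values cover only how far these libraries differ, and that may be technical.

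NAI acylates the 2′-hydroxyl of ribose, faster at nucleotides that move freely than at those held in a helix or against a protein. Reverse transcriptase reading across the adduct in manganese misincorporates, so a mutation rate above that without NAI can mark a reactive nucleotide. SLERT is processed from an intron and carries an H/ACA small nucleolar RNA (snoRNA) at each end. Such snoRNAs fold into hairpins joined by a hinge, guide pseudouridylation and are bound by a set of shared proteins that includes dyskerin. RefSeq (GRCh38.p14) lists SNORA5C with 137 nucleotides and SNORA5A with 134, both within TBRG4 on chromosome 7, and the span from one to the other is 694 nucleotides, the length of SLERT. By this match of lengths, nucleotides 1 to 137 are called the SNORA5C part, 138 to 560 the middle and 561 to 694 the SNORA5A part.

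The 2 snoRNA parts are printed here because they held 10 of the 12 largest increases outside the end stretches and a high share of decreases. Capitals mark nucleotides whose mutation rate was higher, or lower, with NAI in cells than in the denatured control (edgeR, Benjamini-Hochberg adjusted p under 0.05).
SNORA5C part, 1 to 137, higher: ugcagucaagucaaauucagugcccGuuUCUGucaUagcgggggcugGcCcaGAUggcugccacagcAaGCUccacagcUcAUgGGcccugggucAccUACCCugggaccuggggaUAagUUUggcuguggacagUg
SNORA5C part, 1 to 137, lower: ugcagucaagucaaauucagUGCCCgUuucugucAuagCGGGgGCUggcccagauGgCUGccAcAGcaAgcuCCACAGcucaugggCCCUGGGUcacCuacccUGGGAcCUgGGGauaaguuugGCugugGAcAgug
SNORA5A part, 561 to 694, higher: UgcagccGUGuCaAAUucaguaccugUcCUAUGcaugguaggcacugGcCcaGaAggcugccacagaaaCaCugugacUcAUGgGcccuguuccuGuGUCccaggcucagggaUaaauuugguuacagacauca
SNORA5A part, 561 to 694, lower: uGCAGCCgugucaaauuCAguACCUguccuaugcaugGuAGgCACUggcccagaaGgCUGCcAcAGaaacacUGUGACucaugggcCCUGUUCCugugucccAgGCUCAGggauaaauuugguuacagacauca
Each end of SLERT, nucleotides 1 to 20 and 675 to 694, had rates of at most 0.0516% in any library and 5 of the 39 tested nucleotides there were called, 3 higher and 2 lower; these 5 are left in lower case in the sequences.

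The NAI libraries had a median effective depth of 755624 and 170741 reads (replicates 1 and 2), the DC libraries 757883 and 195922 and the DMSO libraries 462245 and 117237. At the lowest of these depths a count of 3 mutations is a rate of 0.00256%, so counting error was small, and it is the only error that floor covers. Replicates differed by more than sampling noise, with a chi-square per nucleotide of 14.8 in NAI, 12.4 in DC and 7.66 in DMSO.

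Read depth rose and fell in steps at the same nucleotides in all 6 libraries. The steps divide SLERT into 3 overlapping read blocks, 1 to 271, 212 to 482 and 423 to 694. Within each overlap, the first and the last 20 nucleotides are the start of one block and the end of the other, and they are called block edges here. The length of 20 was chosen after the data were seen and equals that of the end stretches of SLERT. No read was assigned to a block. The share of reads from the other block, the one not starting or ending there, was estimated from read depth. The estimate is the depth just outside the step over the depth just inside it. In edge 252 to 271 it was 28.1% and 22.8% in NAI against 42.9% and 46.9% in DC. In edge 423 to 442 the shares were 33.6% and 21.5% in NAI and 51.4% and 55.1% in DC.

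The mutation rates of the edges moved with these shares. The edge sequences are shown because they held the longest runs of calls, and capitals mark nucleotides called in either direction.
Start of block 2, 212 to 231: ggcccAGUCUGACAgggGCU
End of block 1, 252 to 271: UGGGACCAUGGGACCCCUGC
Start of block 3, 423 to 442: gcUGCGGGCCAUCUCCUACC
End of block 2, 463 to 482: UCUCUGACGAAAGAUGUGCU
All 20 nucleotides of edge 252 to 271 were called lower, with a median log2 ratio of NAI to DC of -0.80 and -1.19 in replicates 1 and 2. The log2 ratio of the read shares there was -0.61 and -1.04. In edge 423 to 442, where 17 were called lower and 1 higher, the medians were -0.74 and -1.39 and the share ratios -0.61 and -1.36. All 20 nucleotides of edge 463 to 482 were called higher, with medians of 0.50 and 0.87 and share ratios of 0.42 and 0.77. Edge 212 to 231 had 11 higher and 1 lower, medians of 0.18 and 0.35 and share ratios of 0.32 and 0.52.

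When the depth of each edge was multiplied by its read share, the edge medians lay between -0.19 and 0.10. That scaling treats reads of the block starting or ending there as unable to show mutations, which was not tested. It also takes each estimated share as exact. The calls became 1 higher and 6 lower in edge 252 to 271 and 5 higher and 1 lower in each of edges 423 to 442 and 463 to 482. In edge 212 to 231 they turned to 3 higher and 7 lower. The results that follow are therefore given for the 574 nucleotides outside the end stretches and the block edges, beside the values for all 693.

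**Figure D1:**
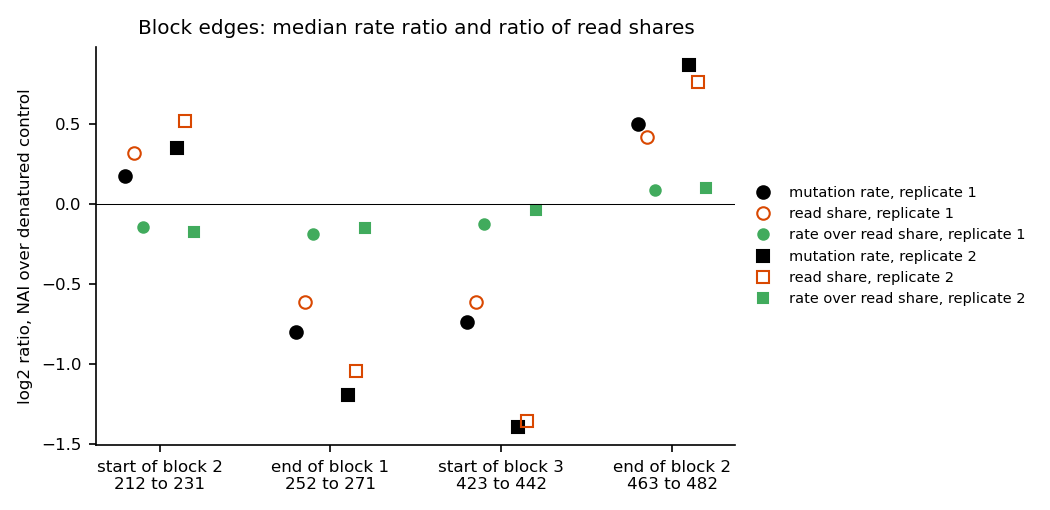
Median log2 ratio of NAI to DC over the 20 nucleotides of each block edge (black), log2 ratio of the share of reads from the other block (open, orange) and the median after division by that share (green), for replicates 1 (circles) and 2 (squares). The rate ratios follow the share ratios in sign at all 4 edges, and the scaled medians lie between -0.19 and 0.10.

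Over the whole of SLERT, cells treated with NAI had a mutation rate of 0.960% and 0.970% (0.965% ± 0.0069, SD, n = 2). The denatured control had 0.862% and 0.842% (0.852% ± 0.014, n = 2), and DMSO had 0.714% and 0.690%. Both NAI libraries thus lay above both DC libraries, with a ratio of means of 1.13, and 1.13 without the edges too. The median nucleotide went the other way, with a log2 ratio of -0.098 and -0.053 in replicates 1 and 2 among the 574.

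By edgeR's quasi-likelihood test with Benjamini-Hochberg adjustment, 187 of the 693 nucleotides were higher in cells (27.0%) and 217 lower (31.3%), together 58.3%. Among the 574 outside ends and edges, 152 were higher (26.5%) and 177 lower (30.8%), together 57.3%. The NAI and DC libraries did not overlap at any of these 152 or at 176 of these 177. This adds no support, because the calls were made from the same libraries, and the share over all 574 is not given. The lower calls outnumbered the higher ones in most fits but not in all. Without DC replicate 1 the counts were 157 higher and 145 lower of 693, and with TMM scaling, which shifts the median of all nucleotides by under 0.1 on the log2 scale, 197 and 178. The log2 ratios of the replicates correlated across the 574 nucleotides, which share libraries and are not independent (Pearson r = 0.926, Spearman rho = 0.860).

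Increases were larger than decreases. Of the 152 nucleotides called higher outside the edges, 32 changed by more than 2-fold, and their log2 ratios reached 3.08. Of the 177 called lower, 2 changed by more than 2-fold, and none fell by more than 1.06 on the log2 scale. The higher nucleotides had median rates of 1.43% and 1.43% in NAI, 0.888% and 0.874% in DC and 0.672% and 0.607% in DMSO. The lower ones had 0.584% and 0.589% in NAI, 0.820% and 0.848% in DC and 0.595% and 0.563% in DMSO. At these lower nucleotides the medians of NAI-treated cells lay close to those of cells given only the solvent. No DMSO background was subtracted from the rates, so decreases had less room than increases. The part of this in the difference in size was not tested.

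**Figure D2:**
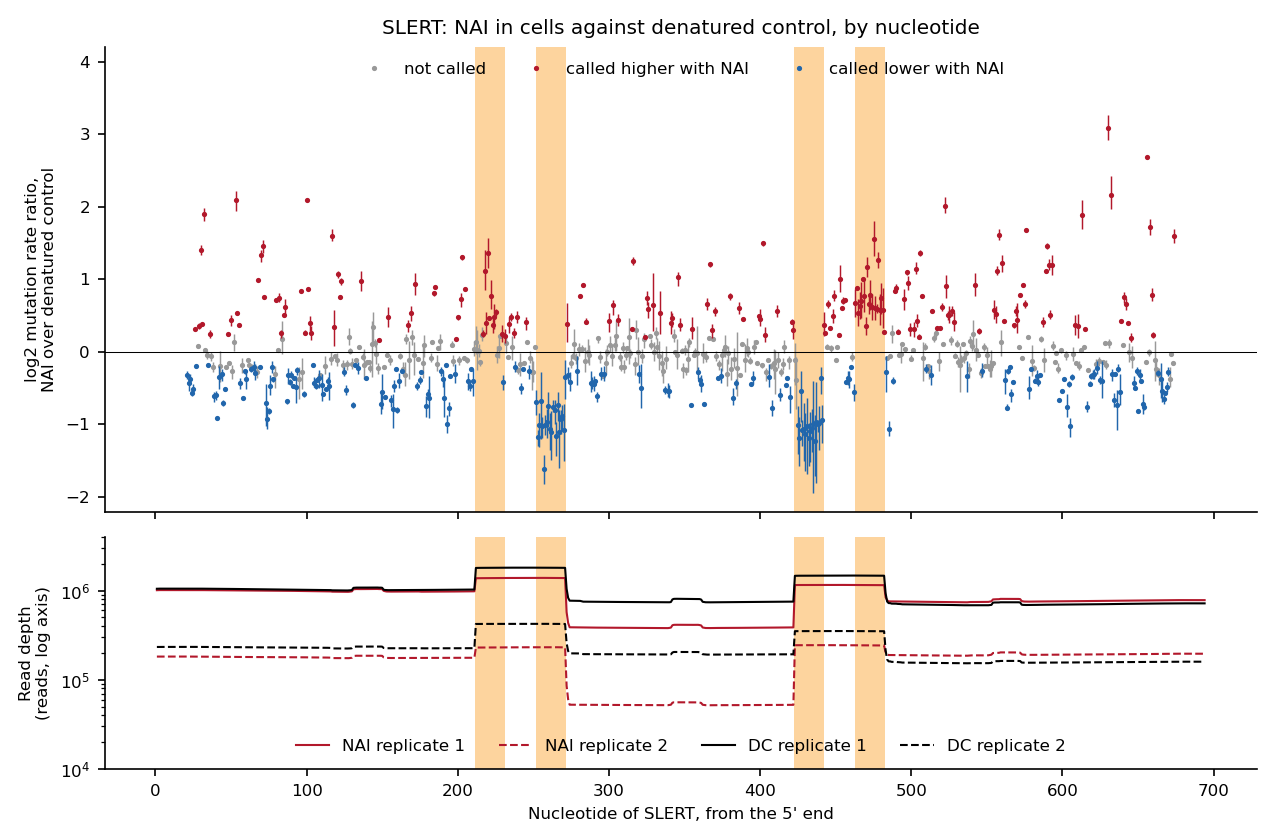
Upper panel: log2 ratio of mutation rates, NAI in cells over denatured control, for nucleotides 21 to 674 of SLERT, as fitted values with bars joining the 2 replicates, coloured by call; lower panel: read depth of the NAI and DC libraries on a log axis. Orange bands are the 4 block edges, where depth steps and long runs of calls coincide; C630 and G656 stand highest outside them, at 3.08 and 2.68.

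The strongest increases were single nucleotides in the snoRNA parts. C630, in the SNORA5A part, had rates of 6.77% and 7.46% in NAI, 0.895% and 0.777% in DC and 0.317% and 0.260% in DMSO. Both NAI libraries lay far above the other 4, and the increase over DC was 3.08 on the log2 scale (SE 0.092, edgeR adjusted p = 9.02e-13). G656, in the same part, had 6.91% and 6.98% in NAI, 1.06% and 1.10% in DC and 0.300% and 0.358% in DMSO. Its libraries separated in the same order, and the fitted increase was 2.68 on the log2 scale (SE 0.075, edgeR adjusted p = 8.17e-13).

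The others of the 12 with the largest log2 increases ranged from U117 at 1.60 to C632 at 2.16. In the SNORA5C part G53 had rates of 3.38% and 2.86% in NAI and 0.726% and 0.744% in DC, and A100 had 4.16% and 4.24% against 0.975% and 1.00%. G32 reached 3.04% and 2.85% against 0.768% and 0.817%. For each of these the NAI libraries did not overlap the DC libraries, and DMSO lay below both. In the middle of SLERT, G522 had 1.68% and 1.80% in NAI against 0.448% and 0.408% in DC, and G558 had 1.51% and 1.61% against 0.519% and 0.496%. These 2 were the only members of the 12 outside the snoRNA parts, which gave 4 (SNORA5C) and 6 (SNORA5A). The parts held 117 and 114 of the 574 nucleotides outside ends and edges.

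Guanines made up 7 of the 12, with 2 cytosines, 2 uridines and 1 adenine. Of the 574 nucleotides outside ends and edges, 190 were guanines. A minimum free energy fold of the SLERT sequence alone, which used none of the mutation data, left 9 of the 12 unpaired and paired A100, C632 and G656. It left 185 of the 574 unpaired. All 12 stayed called in each of the 15 alternative fits that were tallied, and none lies in a block edge. Fits that combined removal of the edges with another change were not tallied by nucleotide. C630 and C632 flank A631.

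By difference in percentage points, 2 more nucleotides joined them, both of high background. A148 had 51.7% and 53.2% in NAI, 46.6% and 47.4% in DC and 50.1% and 49.4% in DMSO, so its DMSO rates lay between the other conditions. G239 had 12.7% and 11.6% in NAI, 9.64% and 7.81% in DC and 7.80% and 6.46% in DMSO. The fold changes of these 2 against DC were 1.12 and 1.39, and both lost the call with limma on log2 rates (adjusted p = 0.0837 and 0.0514). Another position, G529, had a mean of 49.2% in DMSO.

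The 12 nucleotides with the largest log2 decreases by the rule used for naming all lie in block edges, from G270 at -1.07 to C257 at -1.61. C257 had rates of 0.400% and 0.356% in NAI, 1.08% and 1.25% in DC and 0.636% and 0.706% in DMSO. Its NAI libraries lay below all 4 others. Its log2 change was -0.80 once the depth was scaled by read share, with the share taken as exact (edgeR adjusted p = 1.94e-09). U436 had 0.443% and 0.277% in NAI and 0.811% and 0.910% in DC, and its change of -1.22 became -0.30 with that scaling. With the scaling, 6 of the 12 lost their call, namely G262, G426, G428, G430, C432 and A433.

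Outside the edges the 12 largest decreases, chosen after their values were seen, ran from -0.77 to -1.06 on the log2 scale. U485 fell most, with 0.665% and 0.718% in NAI, 1.49% and 1.39% in DC and 0.670% and 0.572% in DMSO (log2 change -1.06, SE 0.097, edgeR adjusted p = 3.42e-07). Its NAI libraries lay below both DC libraries and within or just above the range of DMSO. C605 had 0.234% and 0.190% in NAI against 0.441% and 0.429% in DC, and C193 had 0.230% and 0.220% against 0.419% and 0.481%. In the SNORA5C part the neighbours C74 and A75 fell together, by 0.92 and 0.82 on the log2 scale.

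Cytosines made up 6 of these 12 and guanines 4, against 2 and 7 among the 12 largest increases. Among all 574, 164 were cytosines and 190 guanines. The sequence-only fold paired 389 of the 574 and 11 of these 12, all but U485. Their median rates were 0.252% in NAI, 0.466% in DC and 0.254% in DMSO. The other members were G41, C157, G160, C194, G408, C563 and G650, and all 12 stayed called in each of the 15 alternative fits that were tallied. By percentage points the largest decreases outside the edges were at U485, A75, G152, C354, C292 and U139. G152 went from 2.62% and 2.54% in DC to 1.74% and 1.62% in NAI, with 1.22% and 1.26% in DMSO.

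**Figure D3:**
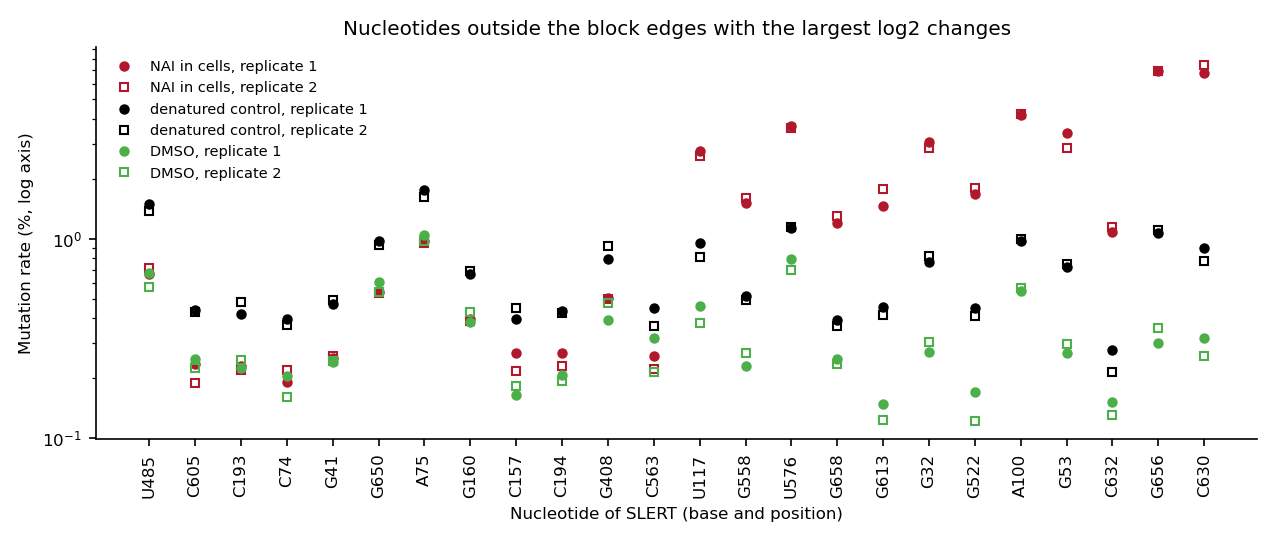
Mutation rate in percent on a log axis at the 12 nucleotides outside the block edges with the largest decreases (left) and the 12 with the largest increases (right), for each of the 6 libraries. At the right all NAI points lie above DC and DMSO, up to 7.46% at C630; at the left the NAI points lie below DC and near DMSO.

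Changes also ran along the sequence. Runs of at least 6 nucleotides with the same sign in both replicates and at least 3 calls numbered 15 for decreases, covering 153 nucleotides, and 10 for increases, covering 84. The longest, 252 to 271 and 424 to 441 lower and 463 to 482 higher, lie in the edges. Of the next 2 higher runs, both of 10 nucleotides, 216 to 225 lies in an edge and 519 to 528 does not. Outside them 13 runs of decreases and 8 of increases were left. These runs are a description of called nucleotides and were not tested as runs.

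The longest runs of decreases outside the edges had 12 nucleotides and all lay in the snoRNA parts. They are shown with the 3 longest runs of increases outside the edges and with run 589 to 594, chosen after its values were seen, with capitals at the called nucleotides.
Lower, 56 to 67: GgCUGccAcAGc
Lower, 104 to 115: UGGGAcCUgGGG
Lower, 616 to 627: GgCUGCcAcAGa
Lower, 662 to 673: cAgGCUCAGgga
Higher, 519 to 528: ACaGAACgGU
Higher, 323 to 329: gUGGuuG
Higher, 501 to 507: cUAUGGU
Higher, 589 to 594: CUAUGc
Run 104 to 115 had median rates of 0.338% and 0.314% in NAI, 0.459% and 0.449% in DC and 0.302% and 0.306% in DMSO, and 11 of its 12 nucleotides were paired in the sequence-only fold. Run 589 to 594, with 1 of 6 paired in that fold, had the largest increase of any run, with median rates of 1.32% and 1.37% in NAI against 0.624% and 0.587% in DC. Its median log2 ratio was 1.07 and 1.20 in replicates 1 and 2. Runs did not split cleanly by predicted pairing. In that fold 5 of 10 nucleotides were paired in run 519 to 528 and 4 of 7 in run 323 to 329. Higher run 365 to 370 had 5 of 6 paired, and lower run 87 to 95 had 4 of 9.

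In the middle of SLERT the run from 519 to 528 had median log2 ratios of 0.45 and 0.59, and the run from 323 to 329 had 0.26 and 0.23. From nucleotide 443 to 560, leaving out the edge, 40 of 98 nucleotides were called higher (40.8%) and 12 lower (12.2%), a region chosen after the values were seen. From 272 to 422 the counts were 33 higher and 32 lower of 151. No block edge lies between nucleotides 483 and 560.

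Mean log2 rates over tiles of 20 nucleotides were tested with limma, and 10 of 35 tiles were higher (28.6%) and 6 lower (17.1%), together 45.7%, by Benjamini-Hochberg adjusted p. Of these, 5 higher and 3 lower tiles held edge nucleotides, among them the largest changes of each direction. Tile 421 to 440 had a log2 change of -0.85, tiles 261 to 280 and 241 to 260 had -0.55 and -0.53, and tile 461 to 480 had 0.68. With the edge depths scaled these became 0.039, -0.096, -0.16 and 0.14, so the first also turned its direction. Tile 201 to 220 went from 0.23 to 0.037 and lost its call. Without the edges 7 tiles were higher and 3 lower. These include tiles 421 to 440, then at 0.36, and 461 to 480, then at -0.31, which rest on 2 nucleotides each and are reversed from their values with the edges.

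Among tiles with no edge nucleotide, 501 to 520 rose by 0.27 (SE 0.066, limma adjusted p = 0.0336), 541 to 560 by 0.26 (SE 0.041, limma adjusted p = 0.0154) and 521 to 540 by 0.22 (SE 0.058, limma adjusted p = 0.0365). Tile 141 to 160, just 3′ of the SNORA5C part, fell by 0.24 (SE 0.030, limma adjusted p = 0.00751). With the edges scaled, tiles 501 to 520 and 521 to 540 just missed the threshold (limma adjusted p = 0.0507 for both). Leaving out either DC library ended all tile calls with limma, and leaving out either NAI library left 1 higher and 4 lower. A count test on mutations summed per tile (edgeR) gave 20 higher and 5 lower with all libraries, 18 and 5 without DC replicate 1 and 17 and 5 without DC replicate 2. That test used the edge depths without scaling. In it a nucleotide of high background, such as A148 in tile 141 to 160, weighs more than the others of its tile. It therefore answers another question than the tile means.

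The calls were then counted by base, by predicted pairing and by part of the RNA, as descriptions with no test between the sets. Among the 574 nucleotides, 68 of 164 cytosines were lower (41.5%) and 30 higher (18.3%), and 58 of 190 guanines were lower and 40 higher. Adenines had 34 of 97 higher (35.1%) and 23 lower, and uridines 48 of 123 higher (39.0%) and 28 lower. Median log2 ratios were -0.20 and -0.20 for C, -0.15 and -0.12 for G, 0.012 and 0.094 for A, and 0.024 and 0.081 for U in replicates 1 and 2. The C and G medians lay below the A and U medians in both replicates.

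The bases also differed in rate. Median rates of inner adenines were 1.26% and 1.24% in NAI, 1.16% and 1.15% in DC and 1.03% and 0.947% in DMSO. Those of inner cytosines were 0.404% and 0.398% in NAI, 0.463% and 0.445% in DC and 0.310% and 0.292% in DMSO. Adenines lay above cytosines in every condition, DMSO included, and the part of that background in the difference between bases was not tested.

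A helix holds its bases, and predicted pairing was set beside the calls. Of the 389 nucleotides outside ends and edges that were paired in the sequence-only fold, 147 were lower (37.8%) and 76 higher (19.5%). Of the 185 unpaired ones, 30 were lower (16.2%) and 76 higher (41.1%). The median log2 ratio was -0.17 and -0.14 for paired and 0.061 and 0.13 for unpaired nucleotides. Within each base the unpaired median lay above the paired one in both replicates, for instance 0.19 and 0.20 against -0.038 and 0.041 at uridines. At cytosines both medians were below 0, with -0.29 and -0.25 for paired and -0.096 and -0.16 for unpaired ones.

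**Figure D4:**
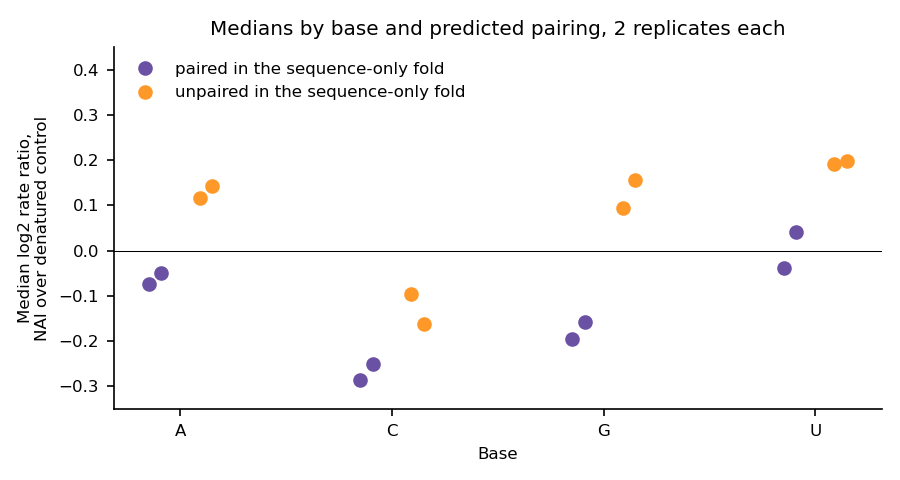
Median log2 ratio of mutation rates, NAI over denatured control, by base and by pairing in the sequence-only fold, over the 574 nucleotides outside ends and block edges; each pair of points is replicates 1 and 2. Unpaired medians lie above paired ones for every base, and cytosines lie lowest.

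By part of the RNA, the share called lower was 44.4% and 42.1% in the snoRNA parts and 22.4% in the middle. In the SNORA5C part 52 of 117 nucleotides inside the end stretch were lower and 32 higher (27.4%). In the SNORA5A part 48 of 114 were lower and 30 higher (26.3%). The middle without its edges had 77 of 343 lower and 90 higher (26.2%). Median log2 ratios were -0.19 and -0.16 in the SNORA5C part, -0.19 and -0.14 in the SNORA5A part and -0.052 and 0.018 in the middle.

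The 2 snoRNA parts are related in sequence, with 90 identical bases among 134 aligned (67.2%) and no identical run longer than 13. They lie in different read blocks of the same libraries. Of 94 aligned pairs outside the ends, both nucleotides were called in 52, of which 17 were higher in both, 33 lower in both and 2 opposite. Over the same 94 pairs, 27 nucleotides of the SNORA5C part were higher and 45 lower. In the SNORA5A part 22 were higher and 40 lower. The log2 ratios correlated with r = 0.668 and rho = 0.686 over the 61 pairs of the same base, and with r = 0.426 and rho = 0.568 over the 33 pairs of different bases. These are descriptions across positions that share libraries and, at the first, base.

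G53 and its partner G613 rose by 2.09 and 1.89 on the log2 scale, and U117 and U674 by 1.60 and 1.59. C30 and U590, of different bases, rose by 1.40 and 1.46. The runs of decreases at 56 to 67 and 616 to 627 are aligned with each other, and both overlap the letters of the hinge box, ANANNA. C71 rose by 1.46 where its partner C630 rose by 3.08, so the nucleotide with the largest log2 increase outside the end stretches had a partner that rose less. The opposite pairs were C73 with C632, at -0.71 and 2.16, and U27 with U587, at -0.19 and 0.41. G656 rose by 2.68 where its partner C97 was not called, at -0.28.

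**Figure D5:**
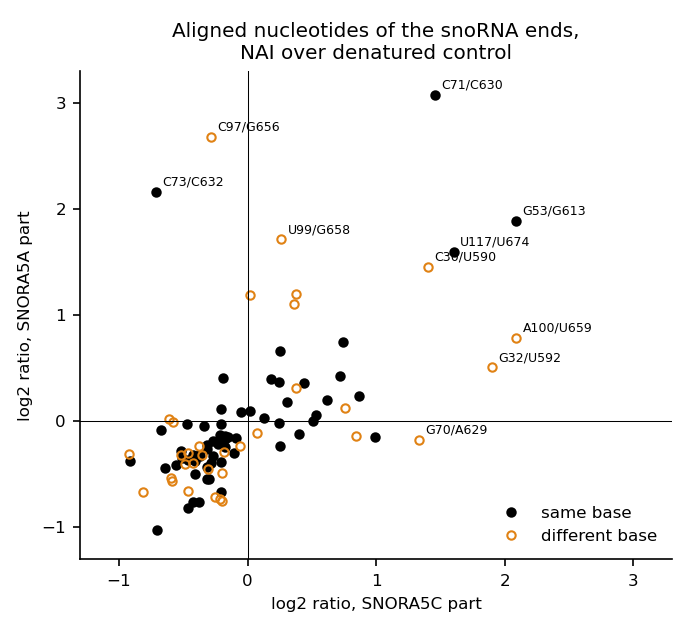
Log2 ratio of mutation rates, NAI over denatured control, at the 94 aligned nucleotide pairs, SNORA5C part on the horizontal and SNORA5A part on the vertical axis, for pairs of the same base (filled) and of different bases (open). Most pairs lie in the lower left, 17 were higher in both parts, and C73/C632 and C97/G656 stand apart at the upper left.

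The letters ANANNA, searched on the RNA strand, occurred at 4 places in SLERT, starting at nucleotides 63, 519, 623 and 689. The matches at 63 and 623 lie in the snoRNA parts, and each had 3 nucleotides lower, with 1 higher at 63 and none at 623. That is 3 of 6, where 44.4% and 42.1% of all nucleotides of these parts inside the end stretches were lower. The match at 519, in the middle, had 5 of 6 higher and none lower, where 26.2% of the middle without its edges was higher. The ACA near the 3′ end of the SNORA5C part, at 132 to 134, had 2 of 3 nucleotides lower, beside the same 44.4%, and the one at 689 to 691 lies in the end stretch.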

How the data were processed

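SHAPE-MaP was measured on SLERT in 6 libraries, 2 each of NAI, DMSO and DC. The submitters' processing notes name bcl2fastq 2.17.1.14; aligner and mutation counter: not given in the sources used here. Per the file headers, the deposited mutations and both kinds of depth are counts at each nucleotide, the deposited rate is a fraction, and the authors' reactivity and normalised reactivity are scores, which were not tested. Replicates were not pooled. Rates are printed in percent.

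The main test was edgeR 4.0.16 (R 4.3.3) on mutation counts, a quasi-likelihood fit over all 6 SLERT libraries with the logarithm of effective depth as offset, contrast NAI minus DC, Benjamini-Hochberg adjustment over 693 nucleotides and a threshold of 0.05. Tiles were tested with limma 3.58.1 on mean log2 rates. Alternatives used DESeq2 1.42.0, TMM scaling, other filters and left-out libraries. The sequence-only fold is from ViennaRNA 2.7.2 and the alignment from Biopython 1.88. End stretches run from each end to the first nucleotide whose rate reached 0.05% in each of the 6 libraries. Block edges were scaled by the share of reads from the other block, as estimated from the depth on each side of the step. The methods were tested on simulated data. The nucleotide test recovered 63.2% of 1.25-fold changes, 97.0% of 1.5-fold and 100% of 2-fold changes, with 9 false calls among 454 unchanged nucleotides. The simulated counts were drawn with the spread that edgeR fitted to these libraries, with DC and DMSO given the same mean. They held no shift of read share at the edges and left out the end stretches. The false calls therefore do not measure how many real calls are false. In the real data outside ends and edges, 78 of the 152 higher and 137 of the 177 lower calls were under 1.5-fold.

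The nucleotides named are the 12 with the largest log2 change and the 6 with the largest difference in percentage points in each direction, among those called outside the end stretches and changed alike in both replicates. The tiles named are the 4 with the largest change and the runs named the 5 longest in each direction, ties included; others are said to be chosen afterwards, and run 589 to 594, the tiles without edge nucleotides and the pairs of aligned nucleotides were also chosen after the values were seen. The members and lists were chosen with earlier results of these data known.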

Additional observations from a re-analysis of the deposited data

How the results depend on the processing

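Counts of nucleotides stayed within 1.5 times the reported 187 higher and 217 lower when one setting was changed: 184 and 213 with DESeq2, 155 and 170 with limma, 160 and 189 without the block edges and 174 and 202 with the edges scaled. Leaving out one library gave 148 to 181 higher and 145 to 208 lower. The higher outnumbered the lower with TMM scaling (174 and 153 without the edges) and without DC replicate 1 (137 and 126 without the edges as well, the one fit in which a count, 126, lay outside 1.5 times). The replicate numbers did not pair the NAI and DC libraries (correlation of deviations -0.058) or the NAI and DMSO libraries (0.0047). DC and DMSO libraries of the same number did share some deviation (0.33). A fit with the replicate block gave 192 higher and 230 lower, and 9 higher and 6 lower tiles. Tiles depended more on the settings. Against 10 higher and 6 lower, tiles of 30 nucleotides gave 4 and 2, a shift by 10 nucleotides 7 and 3, summed mutations with edgeR 20 and 5, removal of the edges 7 and 3 and scaled edges 2 and 3. Leaving out one library gave 0 to 1 higher and 0 to 4 lower; without DC replicates 1 and 2, 12 and 8 tiles had an unadjusted p under 0.05. The library rate ratio of 1.13 was 1.10 without nucleotides over 5% in DMSO and 1.10 as a mean of nucleotide rates; the cause was not tested. Of the refitted values of the 42 named nucleotides, 610 kept direction and call and 8 lost the call, 6 of these with scaled edges. The analyses of the edges were chosen after seeing the data. With 2 libraries a group, precision is limited by the spread between them, not by depth.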
